A study of Mus musculus with 4 samples.

Results

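The genes described here are 10 regulators of the G1 phase of the cell cycle, taken by symbol from the 22718 genes of the 2 RNA-seq files. They are the D cyclins *Ccnd1*, *Ccnd2* and *Ccnd3*, the E cyclins *Ccne1* and *Ccne2*, the cyclin-dependent kinases *Cdk4* and *Cdk6*, the kinase inhibitors *Cdkn1b* and *Cdkn2a*, and the pocket protein gene *Rb1*. All 10 symbols were found once, and all 10 genes had RPKM (reads scaled to the length of the gene and to the mapped reads of the library) above 1 in both libraries. RNA was measured in mouse embryonic stem (ES) cells, cells of the early embryo that can form all of its tissues, from a wild type line and from the line KO2, which is Prep1-/-, with 1 library for each. Both lines are of the C57BL/6 strain, and the study's methods give culture on gelatin with serum and leukemia inhibitory factor. Prep1 (*Pknox1*) is a TALE homeodomain transcription factor that binds DNA with Pbx partners, and its binding was mapped by ChIP-seq in 1 sample of wild type ES cells, which carry the same strain label but are named R1 in the protocol. With 1 line and 1 library per genotype, no difference below has a replicate check and none was tested. The 95% intervals compare the libraries, not the genotypes, and cover counting error only, since reads are not independent molecules.

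In G1, D cyclins bind Cdk4 or Cdk6 and E cyclins bind Cdk2, and these kinases phosphorylate the Rb protein, which then frees E2F factors to switch on genes of DNA replication. Cdkn1b (p27) holds back cyclin E-Cdk2 complexes, and the *Cdkn2a* gene makes both p16Ink4a, which binds Cdk4 and Cdk6, and p19Arf, which stabilizes p53. Mouse ES cells are known for a short G1 phase and for high cyclin E activity through much of the cycle.

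No G1 regulator passed the thresholds for regulated genes, whose ratio limits are those of the study. The 10 KO/WT ratios of RPKM lay between 0.814 and 1.39. A gene counted as lower if its ratio was below 0.7 and its RPKM exceeded 1 in the wild type, and as higher if its ratio was above 1.5 and its RPKM exceeded 1 in the Prep1-/- library. By these rules 13.3% of the 14254 genes with RPKM above 1 in either library were called lower, 6.91% higher and 20.2% in either direction, against 0, 0 and 0 of the 10 genes. The study set its RPKM minimum in wild type cells for both directions. Counted in that way, 4.52% of 13795 genes and 0 of the 10 were higher. The study itself reported more higher genes, out of fewer genes considered, and the reason for this difference was not traced. Of the 14254 genes, 8655 had at least as many reads, both libraries together, as the least covered of the 10. By the first rules 9.58% of these 8655 were called in either direction. The median ratio of the 10 genes was 0.975, beside 0.954 over all expressed genes, and 65.3% of all expressed genes had a ratio within the range of the 10. Within that range the D cyclins *Ccnd3* and *Ccnd2* and the E cyclin *Ccne1* were higher in the Prep1-/- library, and *Cdk4*, *Cdkn1b*, *Ccne2* and *Cdkn2a* were lower. In RNA from a whole culture, fewer cells of a type and less RNA per cell cannot be told apart.

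**Figure D1:**
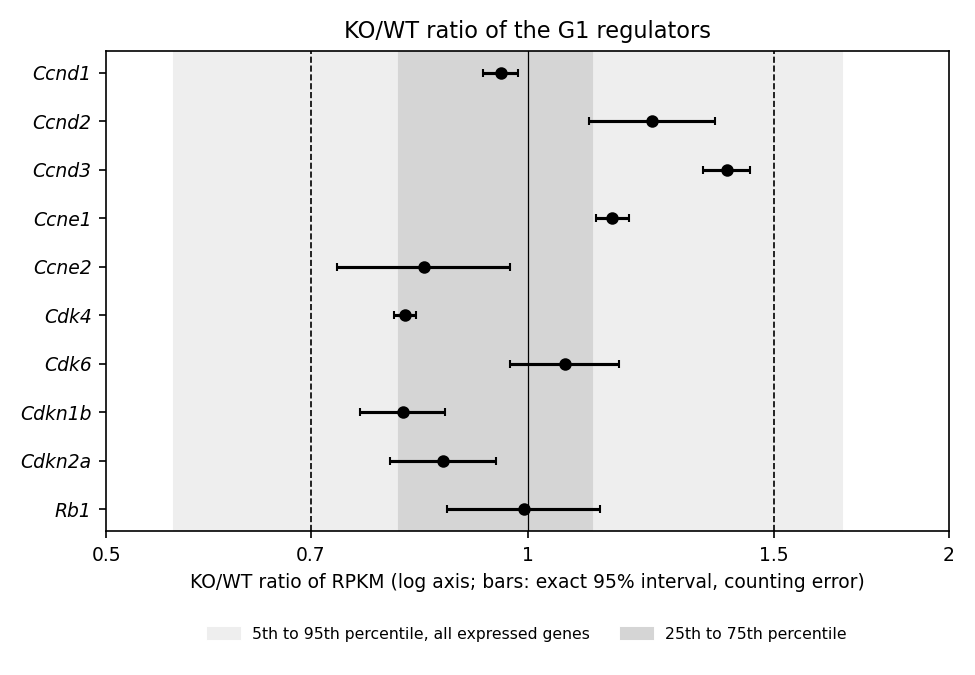
KO/WT ratio of RPKM for each G1 regulator on a log axis, with the exact 95% interval for counting error. The grey bands hold the middle 90% and the middle 50% of all genes with RPKM above 1 in either library, the dashed lines mark 0.7 and 1.5, and all 10 points lie between the lines, with *Ccnd3* (1.39) nearest to the upper one.

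The libraries held 29596294 (wild type) and 25717811 (Prep1-/-) reads, and each of the 10 genes had at least 346 reads in each. These sums are several times the reads per sample that the methods describe, for a reason not given there, and the intervals hold only if each deposited count is 1 read. RPKM was deposited from the read count plus 1, and the ratio of RPKM was 1.12 times the ratio of these counts for every gene. The targeted gene *Pknox1* had 505 reads (RPKM 7.85) in the wild type and 332 reads (RPKM 5.78) in the Prep1-/- library, a ratio of 0.736 (interval 0.638 to 0.846). Since its RNA was still present, the genotype rests on the label within these reads, and they say nothing of the Prep1 protein. By immunoblot the study reported that the Prep1 protein was lost in its Prep1-/- lines, KO2 among them. The ES cell markers *Pou5f1*, *Nanog*, *Sox2*, *Zfp42*, *Esrrb* and *Klf4* had a summed RPKM of 677 and 838, with 5 of 6 higher in the Prep1-/- library. Markers of 3 kinds of differentiating cells were lower there, with a summed RPKM of 27.2 and 8.02 for 3 mesendoderm, 9.0 and 4.17 for 4 primitive endoderm and 48.5 and 22.9 for 2 trophectoderm genes. Of 7 fibroblast markers (summed RPKM 24.2 and 30.1), *Col1a1* had 976 and 1186 reads (ratio 1.36, 1.25 to 1.48), *Col1a2* 388 and 367 and *Thy1* 289 and 269, and these made up most of the sum. The other 4 had fewer reads, *Lum* 0 and 2, *Dcn* 8 and 12, *Col3a1* 27 and 37 and *Postn* 6 and 33. The neural markers *Pax6* (ratio 1.83) and *Sox1* (1.26) had a summed RPKM of 2.24 and 3.36. Of the primed epiblast markers (summed RPKM 2.22 and 3.76), *Otx2* had a ratio of 2.20 and *Fgf5* one of 0.323. The markers' part in the values of the G1 regulators was not tested.

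Cyclin D3, which like the other D cyclins activates Cdk4 and Cdk6, showed the highest ratio of the 10 genes. *Ccnd3* (ENSMUSG00000034165, chromosome 17, 47642000 to 47736632, plus strand, mm9) had 4553 reads (RPKM 102) in the wild type and 5650 reads (RPKM 141) in the Prep1-/- library. The ratio was 1.39 (interval 1.33 to 1.44), higher than that of 91.2% of the expressed genes. On the deposited scaling its interval ended below the threshold of 1.5. The ratio was 1.45 with the median of all expressed genes set to 1 and 1.49 when the median of each chromosome was used. The 10 expressed genes nearest to it on the chromosome had a median ratio of 0.936 and a highest ratio of 1.06, so *Ccnd3* stood above all of them.

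Cyclin D2 was also higher in the Prep1-/- library, from far fewer reads. *Ccnd2* (ENSMUSG00000000184, chromosome 6, 127075797 to 127101066, minus strand) had 708 and 777 reads in the wild type and Prep1-/- libraries, with RPKM values of 22.4 and 27.5. The ratio was 1.23 (interval 1.11 to 1.36), and its 10 neighbours had ratios from 0.645 to 1.24 with a median of 0.970.

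Cyclin D1 was close to the middle of all genes. *Ccnd1* (ENSMUSG00000070348, chromosome 7, 152115836 to 152125774, minus strand) had 10314 wild type reads and 8825 reads in the Prep1-/- library, with RPKM values of 89.7 and 85.8. The ratio of 0.957 (0.930 to 0.984) lay at the 50.7th percentile of the expressed genes. It was 1.00 with the median of all expressed genes set to 1 and 1.04 when the median of each chromosome was used, so its side of 1 depended on the scaling.

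*Ccnd3* thus made up more, and *Ccnd1* less, of the D cyclin RNA in the Prep1-/- library. Of the D cyclin reads, *Ccnd3* held 29.2% (exact binomial interval 28.5 to 30.0) in the wild type and 37.0% (36.3 to 37.8) in the Prep1-/- library, and *Ccnd1* held 66.2% and 57.9%. The ratio of *Ccnd3* to *Ccnd1* reads was 1.45 times higher in the Prep1-/- library (1.38 to 1.52), a number that depends neither on gene length nor on a factor applied to a whole library. The summed RPKM of the D cyclins was 214 and 255, a ratio of 1.19.

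**Figure D2:**
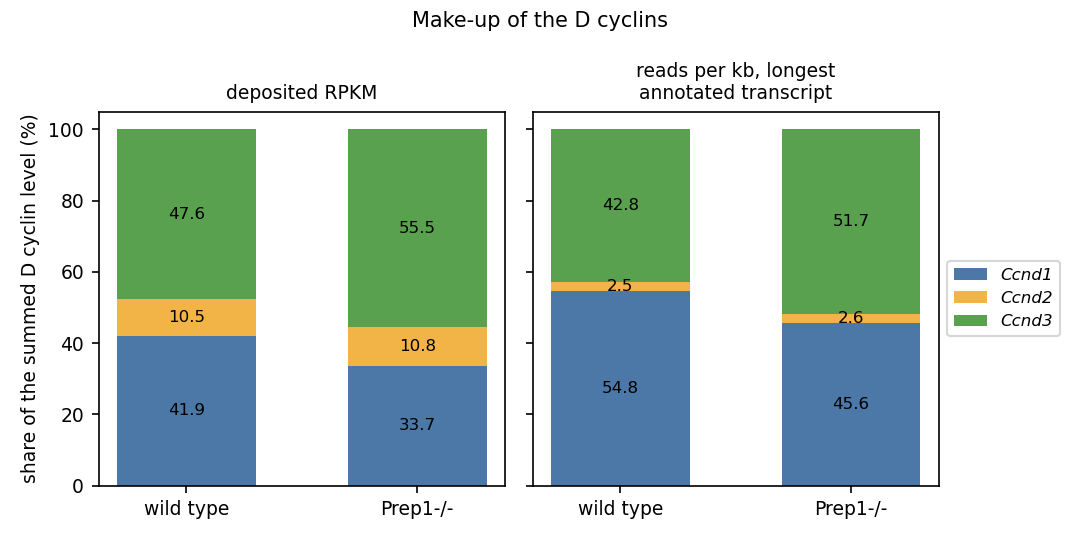
Share of each D cyclin in the summed level of the D cyclins, in percent, for both libraries, from the deposited RPKM (left) and from reads per kilobase of the longest annotated transcript (right). On both scales the *Ccnd3* part is larger in the Prep1-/- library, 55.5% against 47.6% by RPKM and 51.7% against 42.8% by annotated length.

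Which D cyclin was most abundant depended on the gene length used. By deposited RPKM *Ccnd3* exceeded *Ccnd1* 1.14-fold in the wild type library, but per kilobase of the longest transcript in the GENCODE M1 annotation its level was 0.781 of that of *Ccnd1*. In the Prep1-/- library *Ccnd3* was higher on both scales, 1.65-fold and 1.13-fold. *Ccnd2* was the lowest D cyclin throughout. Its RPKM implies a gene length of about 1.30 kb, while its annotated transcript has 5.70 kb, so its share of the D cyclin level was 10.5% by RPKM and 2.47% by annotated length in the wild type library. The KO/WT ratio of a single gene does not depend on the length, but the ratio of the summed D cyclins does, and it was 1.15 per longest transcript.

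The E cyclins, which drive the entry into S phase, lay on opposite sides of 1. *Ccne1* (ENSMUSG00000002068, chromosome 7, 38883003 to 38892553, minus strand) was the second most abundant of the 10 genes, with 10375 wild type reads (RPKM 198) and 10670 reads (RPKM 228) in the Prep1-/- library. The ratio was 1.15 (1.12 to 1.18), above the 0.852 that was the median of its 10 neighbours and the 0.923 that was the median of chromosome 7. *Ccne2* (ENSMUSG00000028212, chromosome 4, 11118498 to 11131926, plus strand) had 459 and 346 reads (RPKM 6.63 and 5.59) and a ratio of 0.843 (0.731 to 0.971). The ratio of *Ccne1* to *Ccne2* reads was thus 1.36 times higher in the Prep1-/- library (1.18 to 1.58). *Ccne1* made up 96.8% of the summed E cyclin RPKM in the wild type and 97.6% in the Prep1-/- library, and the sum was 205 and 233, a ratio of 1.14.

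*Cdk4*, the kinase partner of the D cyclins, was the most abundant of the 10 genes and was lower in the Prep1-/- library. *Cdk4* (ENSMUSG00000006728, chromosome 10, 126500590 to 126504976, plus strand) had 26636 and 19470 reads, with RPKM values of 627 and 513, which lay above 99.7% and 99.6% of all genes. The ratio of 0.817 (0.802 to 0.833) was narrow in counting error and stayed well above 0.7. The 10 genes around it, within 126435496 to 126627110, had a median ratio of 0.850 and a highest ratio of 0.992, so all of them were also below 1. Set against the median of its chromosome the ratio was 0.886.

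*Cdk6*, which binds the same cyclins, did not follow *Cdk4*. It (ENSMUSG00000040274, chromosome 5, 3343893 to 3523218, plus strand) had 990 and 941 reads, RPKM 14.8 and 15.7, and a ratio of 1.06 whose interval of 0.971 to 1.16 included 1. *Cdk4* held 97.7% of the summed RPKM of the pair in the wild type and 97.0% in the Prep1-/- library. The ratio of *Cdk6* to *Cdk4* reads was 1.30 times higher in the Prep1-/- library (1.19 to 1.43), and that of *Ccnd3* to *Cdk4* reads 1.70 times higher (1.63 to 1.77).

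Both inhibitors were lower in the Prep1-/- library. *Cdkn1b* (ENSMUSG00000003031, chromosome 6, 134870419 to 134875531, plus strand) had 1920 and 1398 reads, RPKM 11.3 and 9.23, and the lowest ratio of the 10 genes, 0.814 (0.759 to 0.873). Its 10 neighbours had a median ratio of 0.970, with 1 of them below 0.7. *Cdkn2a* (ENSMUSG00000044303, chromosome 4, 88920377 to 88940557, minus strand) had 1184 and 921 reads, RPKM 18.9 and 16.4, and a ratio of 0.870 (0.797 to 0.949). The files give 1 value per gene, so the reads of p16Ink4a and p19Arf cannot be told apart. The ratio of *Cdkn2a* to *Cdkn1b* reads differed by a factor of 1.07 between the libraries, with an interval of 0.955 to 1.19.

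*Rb1*, which encodes the substrate of the G1 kinases, was the least abundant of the 10 genes and almost the same in both libraries. It (ENSMUSG00000022105, chromosome 14, 73583480 to 73725629, minus strand) had 529 and 470 reads, RPKM 4.92 and 4.89, and a ratio of 0.994 with an interval of 0.875 to 1.13. A difference within these bounds was not detectable at this depth.

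**Figure D3:**
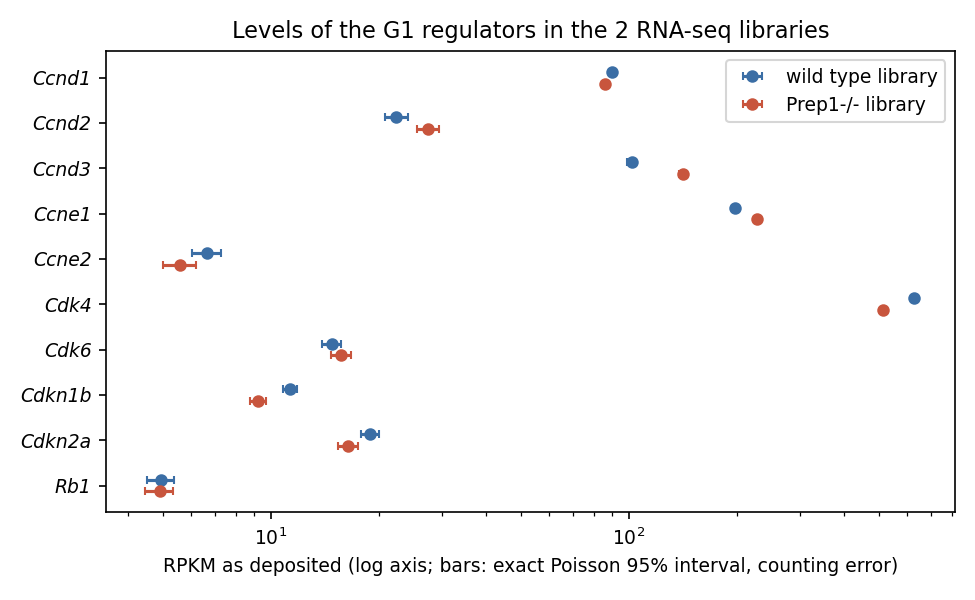
Deposited RPKM of each G1 regulator on a log axis in the wild type (blue) and Prep1-/- (red) library, with exact Poisson 95% intervals for counting error. Levels run from 4.92 (*Rb1*) to 627 (*Cdk4*) in the wild type library, and the distance between the libraries is small beside the distance between genes.

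The order of the 10 genes by RPKM was the same in both libraries: *Cdk4*, *Ccne1*, *Ccnd3*, *Ccnd1*, *Ccnd2*, *Cdkn2a*, *Cdk6*, *Cdkn1b*, *Ccne2* and *Rb1*. In the Prep1-/- library the counting intervals of *Cdkn2a* (15.4 to 17.5) and *Cdk6* (14.7 to 16.8) overlapped, as did those of *Ccne2* (5.00 to 6.19) and *Rb1* (4.45 to 5.34). In the wild type library no neighbours in the order overlapped. The lengths that RPKM implies were from 0.227 (*Ccnd2*) to 2.77 (*Cdkn2a*) times the longest annotated transcript, so this order holds for RPKM and not for every choice of length. Within the paralog pairs *Ccne1* exceeded *Ccne2* 29.9-fold and *Cdk4* exceeded *Cdk6* 42.4-fold by RPKM in the wild type library, and 34.0-fold and 48.9-fold by annotated length. In the Prep1-/- library these RPKM folds were 40.7 and 32.6.

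For 8 of the 10 genes the counting interval of the ratio did not include 1, below 1 for 5 and above 1 for 3. Such intervals are common: they excluded 1 for 57% of all expressed genes, lying below 1 for 36.3% and above 1 for 20.7%. These genes include many with fewer reads than the 10, and the share among genes with as many reads was not counted. On the log2 scale the ratio ran from -0.30 (*Cdkn1b*) to 0.47 (*Ccnd3*), where all expressed genes had a median of -0.07.

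Around these genes, 54 further cell cycle genes in 5 lists were read in the same way, and 1 of them was called, *Cdkn1c*, which was lower. Over all expressed genes the share called in either direction was 20.2%, to be read beside this count and the list counts below. It was 9.58% among expressed genes with at least as many reads as the least covered of the 10. The other inhibitors were all measured with a ratio below 1 where they had reads. *Cdkn1c* (p57), an imprinted inhibitor of the Cdkn1b family, had 1903 and 832 reads, RPKM 35.8 and 17.5, and a ratio of 0.489 (0.450 to 0.531). *Cdkn1a* (p21), a target of p53, had 8592 and 6443 reads and a ratio of 0.839 (0.812 to 0.866). *Cdkn2b* (p15), which lies next to *Cdkn2a*, had 399 and 259 reads and a ratio of 0.727 (0.618 to 0.851). *Cdkn2c* (p18), with 55 and 21 reads, had a ratio of 0.439 (0.245 to 0.717) but an RPKM of only 0.618 and 0.272, under the minimum of 1. *Cdkn2d* (p19Ink4d) was listed with 0 reads in both libraries. The length its RPKM implies is 0.0678 kb against an annotated 1.27 kb, so these 0 reads give no limit for the gene as a whole.

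Of the 12 pocket protein and E2F genes, 0 were called, and the ratios ran from 0.798 (*E2f4*, the gene of the list with the most reads, 17558 and 12526) to 1.35. E2F factors pair with Dp proteins, and the group had a median ratio of 1.04. Of 11 genes for the S, G2 and M cyclins and their kinases, 0 were called, and the 10 of them with RPKM above 1 had ratios from 0.757 to 1.14. *Ccna2*, the cyclin A of dividing cells, had the most reads of this list over both libraries (9282 and 8848) and a ratio of 1.07 (1.04 to 1.10). *Ccnf*, which encodes an F-box cyclin, led in the wild type (9936 reads, against 7613 in the Prep1-/- library) and had a ratio of 0.857. Of 10 genes for the turnover of G1 regulators 0 were called, and *Fzr1*, which encodes an activator of the anaphase-promoting complex (7108 and 5903 reads), had a ratio of 0.929. The median of that list was 0.988.

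Replication genes known as E2F targets showed 0 of 16 called, with a median ratio of 1.11 beside 0.954 over all expressed genes. The ratio was above 1 for 12 of the 16, and the counting interval lay above 1 for 10 and below 1 for 2. Over all expressed genes, which include genes with fewer reads, the interval lay above 1 for 20.7% and below 1 for 36.3%. Values ran from 0.829 to 1.46, and *Mcm5*, a subunit of the replicative helicase with the most reads of the list (17727 and 15059), had 0.95.

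**Figure D4:**
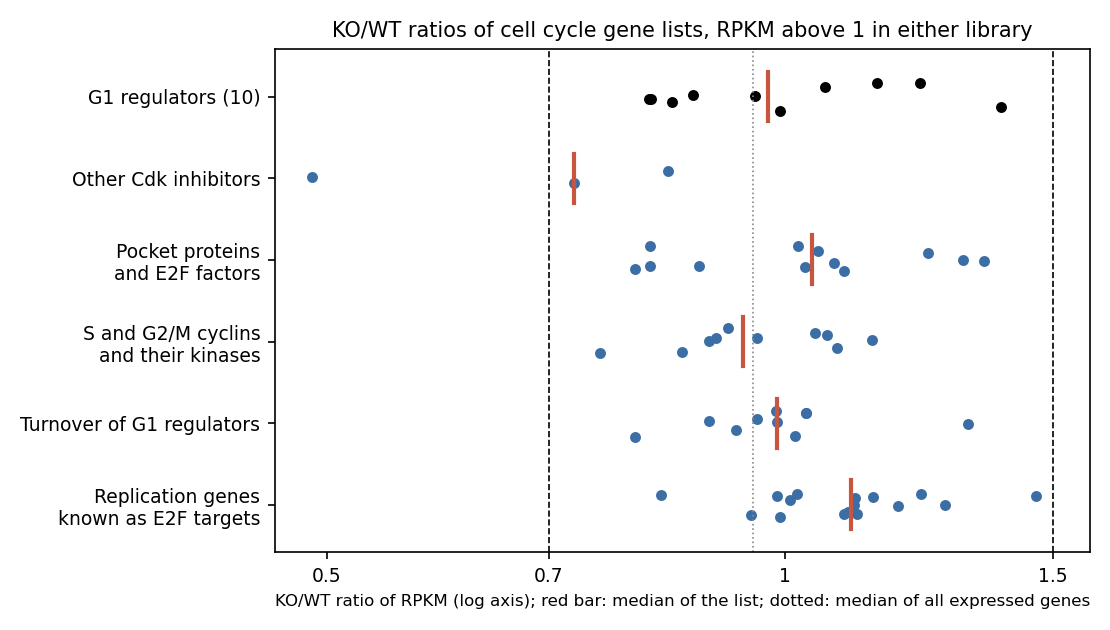
KO/WT ratios of the 10 G1 regulators and of 5 lists of other cell cycle genes with RPKM above 1 in either library, 1 point per gene, on a log axis. Dashed lines mark 0.7 and 1.5, the dotted line the median of all expressed genes (0.954), and the red bars the medians of the lists, from 0.727 (other Cdk inhibitors) to 1.11 (replication genes). 1 point, *Cdkn1c* at 0.489, lies outside the dashed lines.

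Prep1 peaks of the wild type ES cells were found within 20 kb of 6 of the 10 genes, *Ccnd1*, *Ccnd2*, *Ccnd3*, *Cdk4*, *Cdk6* and *Cdkn1b*. The same rule was met by 24.4% of the 21446 genes with an mm9 position and by 30.6% of those with a wild type RPKM above 1. Within 50 kb it was the same 6 genes, where 36.5% and 43.6% of these genes had a peak, and within 5 kb it was 4 of the 10, against 15.9% and 20.8%. For the other cell cycle genes the share was 42.6% (23 of 54) under the 20 kb rule. Long genes have more room for a peak under this rule, and *Cdk6* spans 179 kb, where the median gene spans 14.7 kb. Of the genes with a peak, *Ccnd2*, *Ccnd3* and *Cdk6* are longer than the median gene, and *Ccnd1*, *Cdk4* and *Cdkn1b* are shorter. Of those without one, *Cdkn2a* and *Rb1* are longer, and *Ccne1* and *Ccne2* are shorter. The part of gene length was not tested. Of the 9 peaks, 2 had a score (fold enrichment over input, rounded) above 21, the median of the 3902 peaks, and these lay near *Ccnd1* and at *Cdkn1b*. A peak of such a score lay within 20 kb of 14.3% of all genes with a position and 18.4% of the expressed ones. No peak lay within 20 kb of *Ccne1*, *Ccne2*, *Cdkn2a* or *Rb1*.

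A peak at the gene start was seen for 1 of the 10 genes, *Cdkn1b*, where 8.49% of all genes with a position and 11.9% of the expressed genes had one within 1 kb of the start. This peak (chromosome 6, 134870038 to 134870882, mm9, score 62) ran from -381 to 463 bases of the annotated start, over the upstream promoter and the exon at the 5′ end. A second, weaker peak (134878346 to 134878930, score 13) lay 2815 bases past the end of the gene, in sequence with no annotated gene. *Cdkn1b* had the lowest ratio of the 10, 0.814 (0.759 to 0.873). The genes without a peak at their start had ratios from 0.817 (*Cdk4*, 0.802 to 0.833) to 1.39 (*Ccnd3*). Counting error does not separate *Cdkn1b* from *Cdk4*. Whether the peak bears on the ratio was not tested.

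The peak with the highest score, 112, lay 14584 bases beyond the 3′ end of *Ccnd1* (chromosome 7, 152100314 to 152101252) and covered the start of another gene, *Oraov1*. The peak downstream of *Ccnd2* (chromosome 6, 127059247 to 127060091, score 20) also covered another start, that of 9630033F20Rik. The peaks on both sides of *Cdk4* (chromosome 10, 126495161 to 126495751, score 14, and 126507136 to 126507690, score 12) overlapped *March9* and *Tspan31*. Within introns lay the peak of *Cdk6* (chromosome 5, 3370083 to 3370593, score 16) and 1 peak of *Ccnd3* (chromosome 17, 47702953 to 47703606, score 18), while the other *Ccnd3* peak (47747547 to 47748210, score 16) lay past the gene in *Bysl*. The peaks near *Ccnd1*, *Ccnd2* and *Cdk4* and the second peak of *Ccnd3* thus overlapped a gene other than the one they were counted for.

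**Figure D5:**
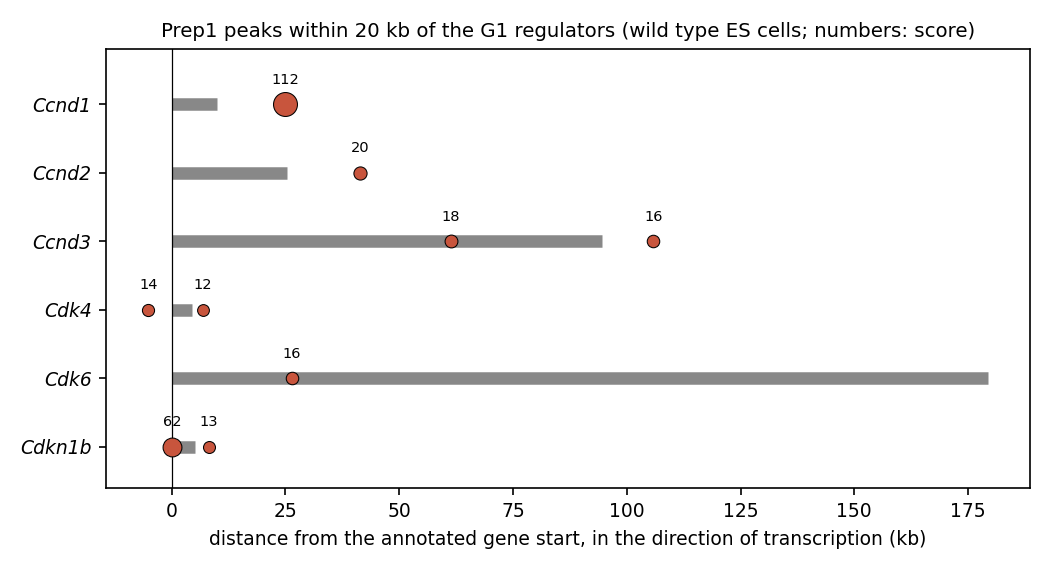
Prep1 peaks within 20 kb of the G1 regulators, as the distance of the peak centre from the annotated gene start in kb along the direction of transcription. Grey bars are the genes, red circles are peaks with an area that grows with the deposited score, which is written above each. The *Cdkn1b* circle (62) sits at the gene start, and the *Ccnd1* circle (112) lies 25 kb from the start.

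The sites that resemble the decamer bound by Prep1 are shown to let the bases under these peaks be compared with the motif. The motif searched, on both strands, was TGA, any base (N), then TGACAG, with 9 fixed bases, and sites with 1 changed base were counted too. An exact match was held by 24.3% of the 3902 peaks, and a match with at most 1 change by 63.4%. In windows of 300 bases the shares were 23.1% and 57.7% at the peak centres and 0.654% and 9.59% at 5 kb to either side. Of the 9 peaks near G1 regulators, 1 held an exact match and 3 a match with 1 change. Each site is written 5′ to 3′ on the strand of the match, with the decamer in capitals, and the substitution gives the motif's base, its position from the 5′ end of the motif and the base of the site.
Downstream of *Ccnd1*, exact, plus strand, chr7:152100617-152100716: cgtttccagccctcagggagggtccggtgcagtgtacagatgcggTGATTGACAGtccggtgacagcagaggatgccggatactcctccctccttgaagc
Intron of *Cdk6*, G10A, plus strand, chr5:3370393-3370492: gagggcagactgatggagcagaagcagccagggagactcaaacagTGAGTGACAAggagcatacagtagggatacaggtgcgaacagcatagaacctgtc
Start of *Cdkn1b*, G10C, minus strand, chr6:134870410-134870439: aagaagaagaTGATTGACACtgcaagtcta
Downstream of *Ccnd3*, G10A, minus strand, chr17:47747835-47747864: cgcggctgggTGAGTGACAAggggtggagt
The *Cdkn1b* site (134870420 to 134870429) is on the minus strand, so its last printed base lay 1 base downstream of the annotated start. That base was 40 bases from the peak centre. The sites near *Cdk6* and *Ccnd3* had the same 10 letters. In the peak of *Ccnd2*, in both of *Cdk4*, in the intronic peak of *Ccnd3* and in the weaker peak of *Cdkn1b* no match with at most 1 change was found, which says only that these letters are not in those peaks.

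The genes with a peak within 20 kb had ratios from 0.814 (*Cdkn1b*) to 1.39 (*Ccnd3*), with 3 below 1 and 3 above 1. The 4 genes without one had ratios from 0.843 (*Ccne2*) to 1.15 (*Ccne1*), with 3 below 1 and 1 above 1. The ranges overlapped.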

How the data were processed

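Per the study's methods and the submitters' processing notes, polyadenylated RNA was sequenced in paired ends and assigned to genes with RSEM against the Ensembl 63 gene build (mm9 in the notes), which divides reads shared by paralogs between them. DESeq is also listed, and tool versions were not given in the sources used here. For each gene the authors deposited the read count, in whole numbers, and the RPKM, which was made from the count plus 1. The ChIP-seq reads were aligned with BWA and peaks were called with MACS against input in 1 sample. The deposited peak file gives a whole-number score, whose scale the file does not state. It equalled the rounded fold enrichment over input, and not the p-value score, in all 1997 peaks of the study's peak table that could be compared, which is part of that table.

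From these files the ratio of Prep1-/- to wild type RPKM was computed with an exact 95% binomial interval from the read counts, and levels with an exact Poisson interval, in Python 3.11.15 (scipy 1.17.1, numpy 2.4.6, pandas 2.3.3), and figures were drawn with matplotlib 3.10.9. The ratio calls and the binomial intervals were tested on simulated data, and the peak, motif and share steps were not. With 1 library per genotype no p-value was computed. The ratio limits (below 0.7, above 1.5) and the RPKM minimum of 1 follow the study, but for higher genes the minimum was set in the Prep1-/- library, with that in the wild type as an alternative chosen after seeing the data. Total read counts were 29596294 (wild type) and 25717811 (Prep1-/-), and 85 genes with an infinite RPKM were not used. Gene positions, transcript lengths and sequence came from GENCODE M1 and its mm9 genome (NCBIM37), and peak positions are printed as deposited.

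The 10 genes, the cell cycle lists and the marker lists were chosen with earlier results of these data known. All 10 genes and all other inhibitors are named, and of the other lists any gene past a threshold with at least 20 reads and the gene with the most reads. Alternatives were other scalings, pseudocounts, RPKM minimums, gene lengths and peak distances.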

Additional observations from a re-analysis of the deposited data

How the results depend on the processing

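With 1 library per genotype the spread between cultures is unknown, no library could be left out, and no paired analysis was possible because each genotype had 1 library. None of the 10 G1 regulators passed a threshold under any of the settings tried. The ratio of *Ccnd1* (0.957 to 1.04) and that of *Rb1* (0.965 to 1.04) crossed 1 and the other 8 did not. *Ccnd3* reached 1.49, its highest value, when the median of each chromosome was set to 1. The summed D cyclin ratio of 1.19 was 1.22 with scaling by summed reads, 1.25 with the median of all genes set to 1, 1.27 with that of each chromosome, 1.13 from summed reads, and 1.15 per longest transcript, a setting chosen after seeing the data. Under the same 3 scalings the E cyclin ratio of 1.14 was 1.17, 1.19 and 1.23, and the *Cdk4* and *Cdk6* ratio of 0.823 was 0.847, 0.861 and 0.891, with 0.850 from summed reads. The number of other cell cycle genes called was 2 instead of 1 with scaling by summed reads or by the median, and 3 with an RPKM minimum of 0.5 or none. Of the 6 genes with a peak within 20 kb, 2 had one with a score above the median, and 1 had one within 1 kb of the start.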
